A study of Mus musculus with 8 samples.

Results

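Bone morphogenetic proteins (BMPs) are secreted ligands of the TGF-beta superfamily that bind pairs of type I and type II serine/threonine kinase receptors. The activated type I receptor phosphorylates SMAD1, SMAD5 and SMAD9, which enter the nucleus with SMAD4 and act on genes such as Id1 and Smad6. In the developing heart the pathway is known for its part in heart muscle specification, cushion and valve formation and growth of the ventricular wall. The 10 genes described here are the ligand genes Bmp2, Bmp4, Bmp5, Bmp6, Bmp7 and Bmp10 and the receptor genes Bmpr1a, Bmpr1b, Bmpr2 and Acvr1. They were chosen by name as 6 ligands and 4 receptors, and all 10 were found among the 37982 genes in the authors' deposited table.

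RNA was sequenced from C57BL/6 mouse ventricles at postnatal day 7, after removal of the atria. The 8 samples comprised 3 triple mutants, 3 double mutants and 2 wild types. As known from the study, the double mutants carried altered alleles of Mkl2, which encodes a coactivator of serum response factor, and of Myh7, the beta myosin heavy chain gene. The triple mutants carried these and an altered allele of Nkx2-5, a homeodomain transcription factor gene of heart muscle, so the alleles of Mkl2 and Myh7 were common to both mutant groups. The labels give neither the sex of the pups nor whether pups were littermates.

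The values are fragments per kilobase of transcript, scaled to the mapped fragments of the library (FPKM), with 1 value per gene and group, so the spread between pups could not be computed and the read depth is unknown. A difference was called where the q value of the authors' Cuffdiff test was under 0.05. Of 10 ventricular muscle markers listed as a tissue check, 9 had a failed estimate in at least 1 group because of too many fragments. The ventricular factor gene Irx4 was listed at 58.0 FPKM in the double mutant and 46.8 in wild type in the authors' deposited table. Its log2 fold change for double mutant over wild type was 0.31, with an unadjusted p under 0.05 (q = 0.287 in that table). The log2 fold change of Irx4 was 0.09 for triple mutant over wild type and -0.21 for triple over double mutant. Irx4 was not called in any comparison. The atrial genes Sln and Myl7 were at 0.149 and 0.136 FPKM in the triple mutant, 0 and 0.137 in the double mutant and 0.190 and 0.130 in wild type in that table. Of the 10 atrial markers listed, 8 reached 1 FPKM in at least 1 group. Among these, Nr2f2 stood at 49.2, 58.7 and 47.5 FPKM and Kcna5 at 21.7, 23.6 and 17.3 FPKM in triple mutant, double mutant and wild type. None of the 10 members had a failed estimate. In bulk tissue, fewer cells of a type and less RNA per cell cannot be told apart.

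Receptor transcripts were more abundant than ligand transcripts. The 4 receptor genes summed to 162 FPKM in the triple mutant, 164 in the double mutant and 158 in wild type, against ligand sums of 42.0, 39.4 and 46.4 FPKM in the same order of groups. The receptor sum was thus 3.86, 4.16 and 3.41 times the ligand sum. Most of it came from Bmpr1a and Bmpr2, which were the highest and the second highest of the 10 members in each group.

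**Figure D1:**
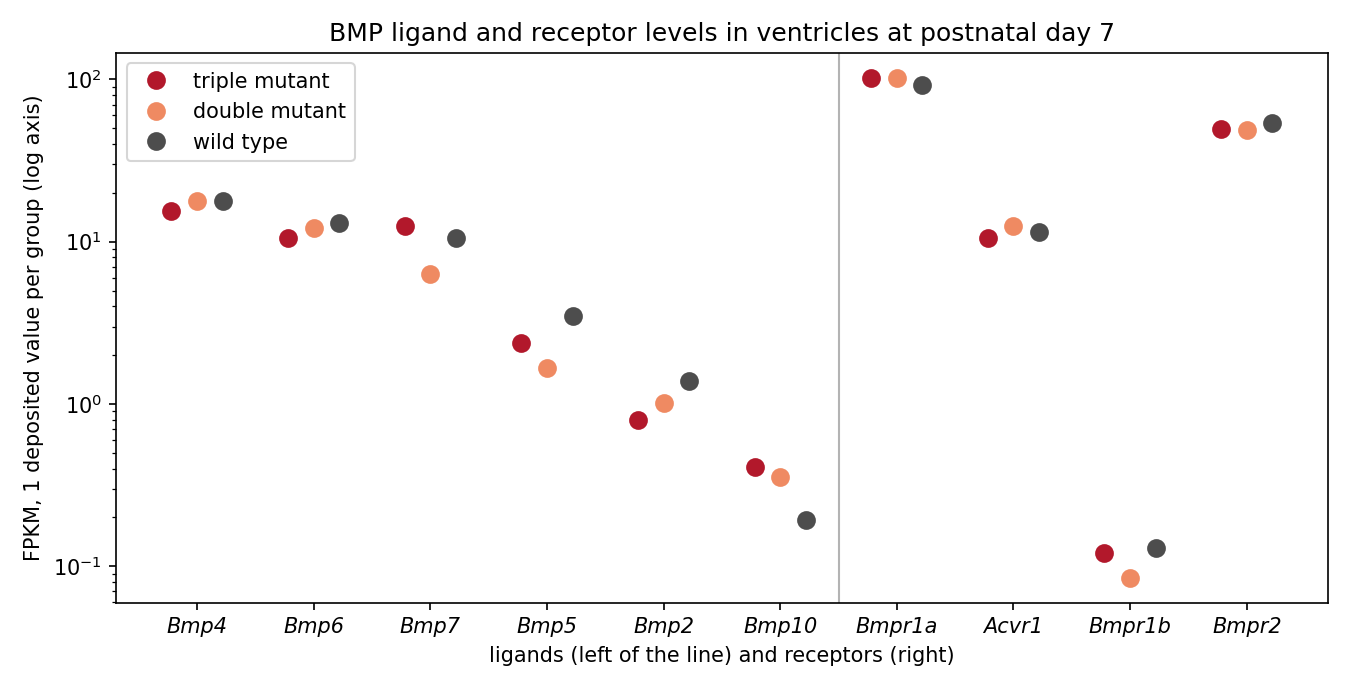
Deposited FPKM (log axis, 1 value per group and no replicate error) of the 6 ligand genes and the 4 receptor genes in triple mutant, double mutant and wild type ventricles, in that order from left to right. Of the ligands, Bmp7 and Bmp5 are lowest in the double mutant, at 6.35 and 1.67 FPKM, and Bmpr1a is the highest member in each group.

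Bmp4, an early ligand of heart and outflow tract development, was the most abundant ligand, listed in the authors' deposited table at 15.4 FPKM in the triple mutant, 17.8 in the double mutant and 17.7 in wild type. Bmp6 was listed there at 10.6, 12.1 and 13.1 FPKM and Bmp7 at 12.5, 6.35 and 10.5 FPKM, in the same order of groups. Bmp6 and Bmp7 encode ligands of one subfamily, to which Bmp5 also belongs. These 3 ligands, Bmp4, Bmp6 and Bmp7, made up 91.5% of the ligand sum in the triple mutant, 92.3% in the double mutant and 89.1% in wild type. Each lay in the middle range of the transcriptome, with Bmp4 above 65.8%, 69.6% and 69.8% of the genes at 1 FPKM or more in triple mutant, double mutant and wild type.

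The remaining ligands were low. Bmp5 was listed at 2.37 FPKM in the triple mutant, 1.67 in the double mutant and 3.48 in wild type in the authors' deposited table. Bmp2, which encodes a ligand of the same subfamily as Bmp4, was listed there at 0.801, 1.01 and 1.38 FPKM. Bmp10, known as a ligand gene of trabecular muscle before birth and of the right atrium after it, stood at 0.409, 0.354 and 0.194 FPKM in that table. The authors' test was not run for Bmp2 or Bmp10, so their folds carry no call.

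Among the type I receptor genes, Bmpr1a held 90.6% of the summed FPKM in the triple mutant, 89.0% in the double mutant and 88.8% in wild type. It was listed at 102, 102 and 92.5 FPKM in the authors' deposited table, above 96.5%, 96.3% and 96.2% of the genes at 1 FPKM or more. Acvr1, the gene of the receptor ALK2, which is known to take ligands of the Bmp6 and Bmp7 kind, followed at 10.5, 12.5 and 11.5 FPKM in that table. Bmpr1b, the third gene of this type, stood at 0.121, 0.0851 and 0.129 FPKM in the deposited table and was not tested. Bmpr2, the type II receptor gene mutated in heritable pulmonary arterial hypertension, was listed there at 49.7, 48.7 and 54.0 FPKM. On the mm9 build Bmpr1a lies on chromosome 14 from 35223920 to 35316527 and Bmpr2 on chromosome 1 from 59821481 to 59927703.

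Promoter windows of 300 bases, from 250 before to 50 after the start, were on hand from RefSeq (GRCm38.p6) for 8 of the 10 members, all but Bmp2 and Bmp7, with 10 windows in all. Bmpr1b has 3 of these windows, and its windows 2 and 3 overlap, so the 10 are not separate units. They were searched on both strands for the NKX2-5 core AAGTG, the CArG box of serum response factor, the SMAD element GTCT and the GC-rich SMAD element GGCGCC. The core AAGTG was in none of the 10 windows and in 46.4% of all 32851 windows, and the CArG box in none and in 1.63%. GTCT was in 9 of the 10 and in 88.0% of all, and GGCGCC in 2 of the 10 and in 11.9% of all. These 2 windows belong to the most abundant members, Bmpr1a and Bmpr2, and their 250 bases before the start are shown for that reason, 5′ to 3′ on the strand of the gene, with GGCGCC in capitals. Counted from the gene start, the match begins at position -198 in Bmpr1a (chr14:34502547-34502796, minus strand) and at -105 in Bmpr2 (chr1:59764029-59764278, plus strand). A match of letters does not show binding, and neither gene was called in any comparison of the groups.
Bmpr1a: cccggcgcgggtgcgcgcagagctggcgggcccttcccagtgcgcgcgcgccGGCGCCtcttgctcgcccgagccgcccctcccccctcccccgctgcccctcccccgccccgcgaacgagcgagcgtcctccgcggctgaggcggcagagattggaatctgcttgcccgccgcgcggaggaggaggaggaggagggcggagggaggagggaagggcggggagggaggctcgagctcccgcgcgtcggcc
Bmpr2: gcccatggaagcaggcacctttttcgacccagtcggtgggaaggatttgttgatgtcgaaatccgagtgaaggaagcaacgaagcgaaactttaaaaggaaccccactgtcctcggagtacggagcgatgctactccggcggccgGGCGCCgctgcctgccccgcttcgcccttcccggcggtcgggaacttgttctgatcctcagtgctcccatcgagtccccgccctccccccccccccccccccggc

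From the highest level to the lowest, the order was Bmpr1a, Bmpr2 and Bmp4 in each of the 3 groups. Bmp7, Bmp6 and Acvr1 followed in the triple mutant, but Acvr1, Bmp6 and Bmp7 in the double mutant and Bmp6, Acvr1 and Bmp7 in wild type. Bmp5, Bmp2, Bmp10 and Bmpr1b were the lowest in each group, in that order. The spread over pups is unknown, so neighbours in this order were not tested against each other. In the group values Bmp6, Bmp7 and Acvr1 stood in a different order in each group.

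Between genotypes, Bmp7 was the member called. It was higher in the triple mutant than in the double mutant, at 12.5 against 6.35 FPKM in the authors' deposited table. That is a 1.96-fold rise, with a log2 fold change of 0.97 (q = 0.0066 in the authors' deposited table). It was lower in the double mutant than in wild type, at 6.35 against 10.5 FPKM, a 1.66-fold fall with a log2 fold change of -0.73 (q = 0.0066 in that table). Between triple mutant and wild type, at 12.5 and 10.5 FPKM, the log2 fold change was 0.24 and did not pass (q = 0.763 in the authors' deposited table).

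The comparisons of triple with double mutant and of double mutant with wild type share the double mutant samples, so the 2 calls of Bmp7 are not independent of each other. If the deposited test statistic is read as the log2 fold change over its standard error, that error was 0.352 for triple against double mutant and 0.335 for double mutant against wild type. The 95% intervals of the log2 fold change were then 0.28 to 1.66 and -1.39 to -0.07. For triple mutant against wild type the interval ran from -0.50 to 0.98, so it holds a rise of the size seen for triple against double mutant. By size, the rise of Bmp7 ranked 15 among the 90 genes called higher in the triple than in the double mutant, and its fall ranked 59 among the 100 genes called lower in the double mutant than in wild type.

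Over the members, 1 of 7 tested was called for triple against double mutant, where Cuffdiff called 1.25% of all tested genes, 0.704% as higher. For double mutant against wild type it was also 1 of 7, where 2.65% of all tested genes were called, 0.767% as lower. For triple mutant against wild type it was 0 of 7, where 1.52% of all tested genes were called. A count of 1 gene among 7 is too small to set against these shares. An unadjusted p under 0.05 was reached by 1, 2 and 0 of the 7 in the same order of comparisons. Over all tested genes it was reached by 1081 of 12786, 2127 of 13034 and 1577 of 12986. The median log2 fold change of the 7 was -0.01, -0.11 and -0.14 in the same order of comparisons, against medians over all tested genes of -0.0011, -0.003 and -0.0026.

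The calls of Bmp7 depend on how the authors' software turned its statistic into a p value. The statistic was 2.76 for triple against double mutant and -2.18 for double mutant against wild type, which as standard normal values give p values of 0.00578 and 0.0292, while the deposited p value is 5e-05 in each, the lowest in the file. With p values taken from the statistic in this way and adjusted over all genes, Bmp7 was called in neither comparison (q = 1.0 in each), and 4 and 9 genes were called in the whole table, 0.0313% and 0.0691% of those tested. For triple mutant against wild type 4 genes were called, 0.0308% of those tested, none of them a member. No gene of the pathway lists described next was called on this reading.

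**Figure D2:**
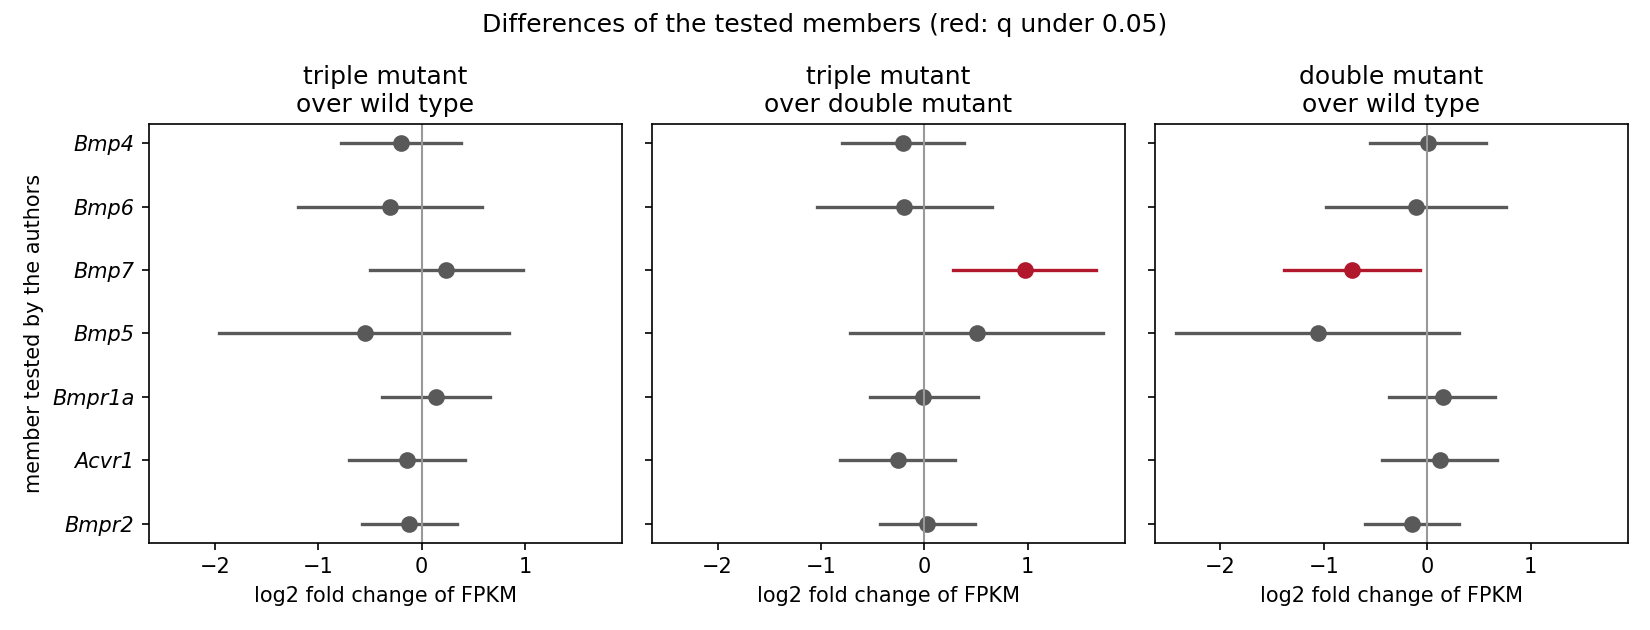
Log2 fold change of FPKM for the 7 members the authors tested, in 3 comparisons, with bars for the 95% interval read from the deposited test statistic. Bmp7 is the member marked in red for a q value under 0.05, at 0.97 for triple over double mutant and -0.73 for double mutant over wild type.

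Of the tested members, Bmp5 had the largest difference that was not called. The authors' deposited table lists it at 1.67 FPKM in the double mutant against 3.48 in wild type, a log2 fold change of -1.06 with an unadjusted p of 0.00565 and q = 0.14. Its interval was wide, from -2.43 to 0.31, and its locus is listed with the same coordinates for 3 other genes, among them Hmgcll1, so its reads may have been split or joined in counting. For triple against double mutant, at 2.37 and 1.67 FPKM, the log2 fold change of Bmp5 was 0.51 (q = 0.551 in the authors' deposited table), with an interval of -0.72 to 1.73. For triple mutant against wild type it was -0.55 (q = 0.639 in that table), with an interval of -1.96 to 0.85.

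Bmp4 and Bmp6 did not pass in any comparison. The log2 fold change of Bmp4 was -0.20 for triple mutant against wild type (q = 0.738 in the authors' deposited table), -0.21 against the double mutant (q = 0.712) and 0.01 for double mutant against wild type (q = 0.991). Those of Bmp6 were -0.31 (q = 0.735), -0.20 (q = 0.872) and -0.11 (q = 0.948) in the authors' deposited table. The intervals reached from -0.80 to 0.57 over the comparisons for Bmp4 and from -1.20 to 0.76 for Bmp6, so a log2 fold change of -1 for Bmp6 lies within the intervals of triple mutant against wild type and against double mutant. The Bmp6 locus is shared with Txndc5, and that of Bmp4 with a pair of predicted genes.

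The make-up of the ligand pool was also compared between the groups. Bmp7 supplied 29.6% of the ligand sum in the triple mutant, 16.1% in the double mutant and 22.7% in wild type. Bmp4 supplied 36.7%, 45.3% and 38.2% and Bmp6 25.2%, 30.8% and 28.3%. The level of Bmp7 was 0.808 of that of Bmp4 in the triple mutant, 0.356 in the double mutant and 0.595 in wild type. These shares rest on the same group values as the calls and were not tested.

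**Figure D3:**
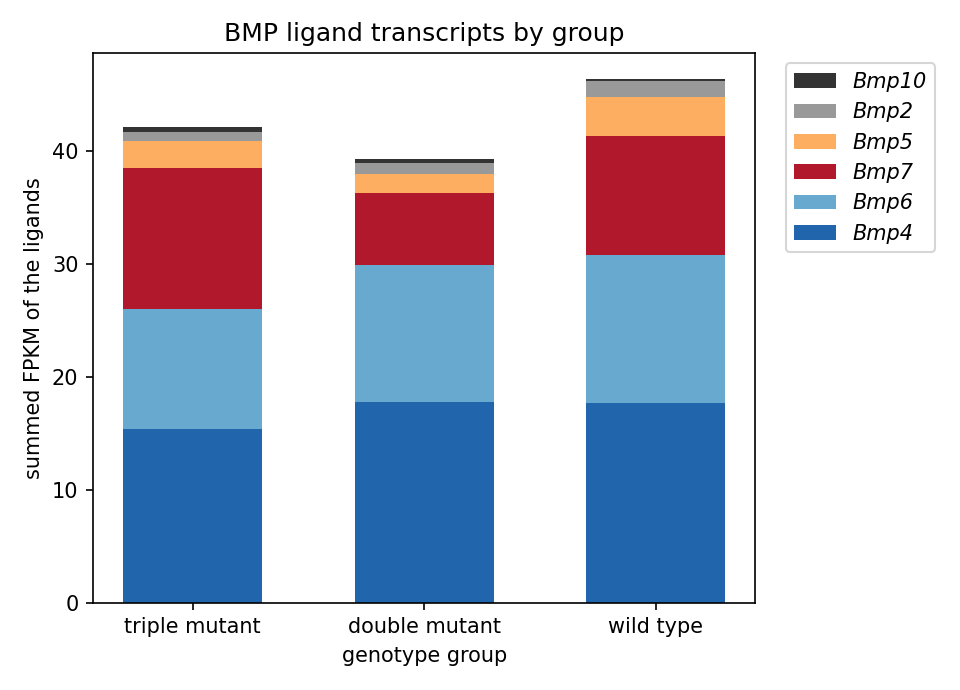
Summed FPKM of the 6 ligand genes in triple mutant, double mutant and wild type ventricles, split by gene, from 1 deposited value per gene and group. The total is 42.0, 39.4 and 46.4 FPKM, and the Bmp7 segment is smallest in the double mutant.

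None of the 3 receptor genes tested, Bmpr1a, Acvr1 and Bmpr2, passed in any comparison. For triple mutant against wild type, log2 fold changes ran from -0.14 for Acvr1 (q = 0.847 in the authors' deposited table) to 0.14 for Bmpr1a (q = 0.823). For triple against double mutant they ran from -0.26 for Acvr1 (q = 0.542 in that table) to 0.03 for Bmpr2 (q = 0.974), and for double mutant against wild type from -0.15 for Bmpr2 (q = 0.759 in that table) to 0.15 for Bmpr1a (q = 0.806). None of these 9 values had an unadjusted p under 0.05. The intervals for Bmpr2 were the narrowest, reaching from -0.60 to 0.49 over the 3 comparisons, so changes beyond a log2 value of 0.60 lie outside them, whereas those for Acvr1 reached from -0.82 to 0.68. The loci of Bmpr1a and Acvr1 are each listed for a predicted gene as well.

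The pathway around the members was followed in 5 lists. In these lists Cuffdiff called 2 genes, Rgma and Hfe2, which encode BMP coreceptors of the repulsive guidance molecule family. Rgma was higher in the double mutant than in wild type, at 18.1 against 11.7 FPKM (1.55-fold, q = 0.0066), and lower in the triple than in the double mutant, at 12.7 against 18.1 FPKM (q = 0.0398 and 1.43-fold lower), in the authors' deposited table. Its locus is shared. Hfe2, the gene of hemojuvelin, which is known in iron control through BMP6 in liver, was higher in the double mutant than in wild type, at 108 against 76.6 FPKM (1.41-fold, q = 0.0184 in the authors' deposited table). For triple against double mutant Hfe2 stood at 83.2 and 108 FPKM and did not pass (q = 0.118 in that table). Rgmb, a further coreceptor gene of the family, stood at 11.1, 14.3 and 13.2 FPKM in triple mutant, double mutant and wild type and was not called (lowest q = 0.276 in the authors' deposited table).

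Of the 14 other receptors and coreceptors, 12 were tested in each comparison. For triple mutant against wild type 0 were called and 0 had an unadjusted p under 0.05, with a median log2 fold change of -0.11. For triple against double mutant 1 was lower and none higher, with a median of -0.20, and for double mutant against wild type 2 were higher and none lower, with a median of -0.01. Of all tested genes, 0.547% were called lower for triple against double mutant and 1.89% higher for double mutant against wild type. Counts of 1 and 2 among 12 are too small to set against these shares. The endothelial coreceptor gene Eng stood at 21.3, 27.8 and 28.6 FPKM in triple mutant, double mutant and wild type in the authors' deposited table, in a shared locus (lowest q = 0.757).

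None of the other ligands, the secreted antagonists and modulators, the SMADs or the response genes was called in any comparison. Of 18 other ligand genes, 8 were tested for triple mutant against wild type and 7 in the other comparisons, with 1 gene at an unadjusted p under 0.05 for triple mutant over wild type, 0 for triple over double mutant and 2 for double mutant over wild type. Beside this and the lists below stand 1577 of 12986, 1081 of 12786 and 2127 of 13034 tested genes in that order. The medians of these ligands were 0.19, -0.17 and 0.21 in that order of comparisons. Inhba, which encodes the activin A subunit, stood at 7.29 FPKM in the double mutant and 4.57 in wild type (q = 0.0629 in the authors' deposited table). Bmp1, which encodes a procollagen and chordin protease rather than a ligand of this family, was the highest of the list at 17.8, 20.1 and 15.3 FPKM in triple mutant, double mutant and wild type in that table.

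Most antagonist genes were near the bottom of the range. Of 19, 8 reached 1 FPKM in at least 1 group. Chrd and Nog, the genes of chordin and noggin, were listed at 0.186 and 0.0899 FPKM in the triple mutant, 0.162 and 0.167 in the double mutant and 0.237 and 0.532 in wild type in the authors' deposited table. Twsg1, the gene of a chordin partner, stood at 42.9, 43.0 and 45.8 FPKM and Fstl1, a follistatin-like gene, in a shared locus, at 184, 193 and 222 FPKM in that table. The tested antagonists numbered 7, 8 and 8 in triple mutant over wild type, triple over double mutant and double mutant over wild type, with medians of -0.11, -0.04 and -0.13 and with 1, 2 and 1 genes at an unadjusted p under 0.05.

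Smad1 was listed at 24.1, 25.4 and 26.5 FPKM in triple mutant, double mutant and wild type, Smad5 at 64.1, 66.2 and 64.4 and Smad4 at 42.7, 42.2 and 42.8 in the authors' deposited table. Smad9 was low, at 1.36, 1.73 and 1.41 FPKM in that table. Over the SMADs and their regulators the medians were -0.01 (14 tested), -0.07 (15 tested) and -0.01 (15 tested) in triple mutant over wild type, triple over double mutant and double mutant over wild type, with 0, 0 and 1 genes at an unadjusted p under 0.05. The corepressor gene Ski and the phosphatase gene Ppm1a, the most abundant of this list, had a lowest q of 0.773 and 0.973 in the authors' deposited table.

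Response genes of the pathway had no call either. Id1, an inhibitor of basic helix-loop-helix factors and a direct target of the BMP SMADs, stood at 61.1 FPKM in the triple mutant, 62.5 in the double mutant and 61.6 in wild type in the authors' deposited table. The feedback inhibitor Smad6 stood at 13.3, 14.9 and 12.9 FPKM and Smad7 at 29.2, 29.0 and 28.4 FPKM in that table. Over the tested response genes log2 fold changes lay between -0.60 and 0.54 in triple mutant over wild type, between -0.53 and 0.31 in triple over double mutant and between -1.16 and 0.65 in double mutant over wild type. The list had medians of -0.18 (17 tested), -0.11 (17 tested) and 0.00 (18 tested) in triple mutant over wild type, triple over double mutant and double mutant over wild type, with 5, 2 and 3 genes at an unadjusted p under 0.05. Over all tested genes it was 1577 of 12986, 1081 of 12786 and 2127 of 13034 in the same order. Whether the list differs from these shares was not tested. Among the 5 response genes for triple mutant over wild type is Nkx2-5, itself altered by an allele in the triple mutant. It stood at 55.2, 53.1 and 43.6 FPKM in triple mutant, double mutant and wild type (lowest q = 0.284 in the authors' deposited table). Nearest to the threshold was Tbx3, a T-box repressor gene of the conduction system in a shared locus, at 6.98 FPKM in the triple mutant against 10.6 in wild type (q = 0.0727 in the authors' deposited table). The cardiac factors Tbx20 and Gata4, the most abundant of this list, had a lowest q of 0.325 and 0.632 in that table.

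**Figure D4:**
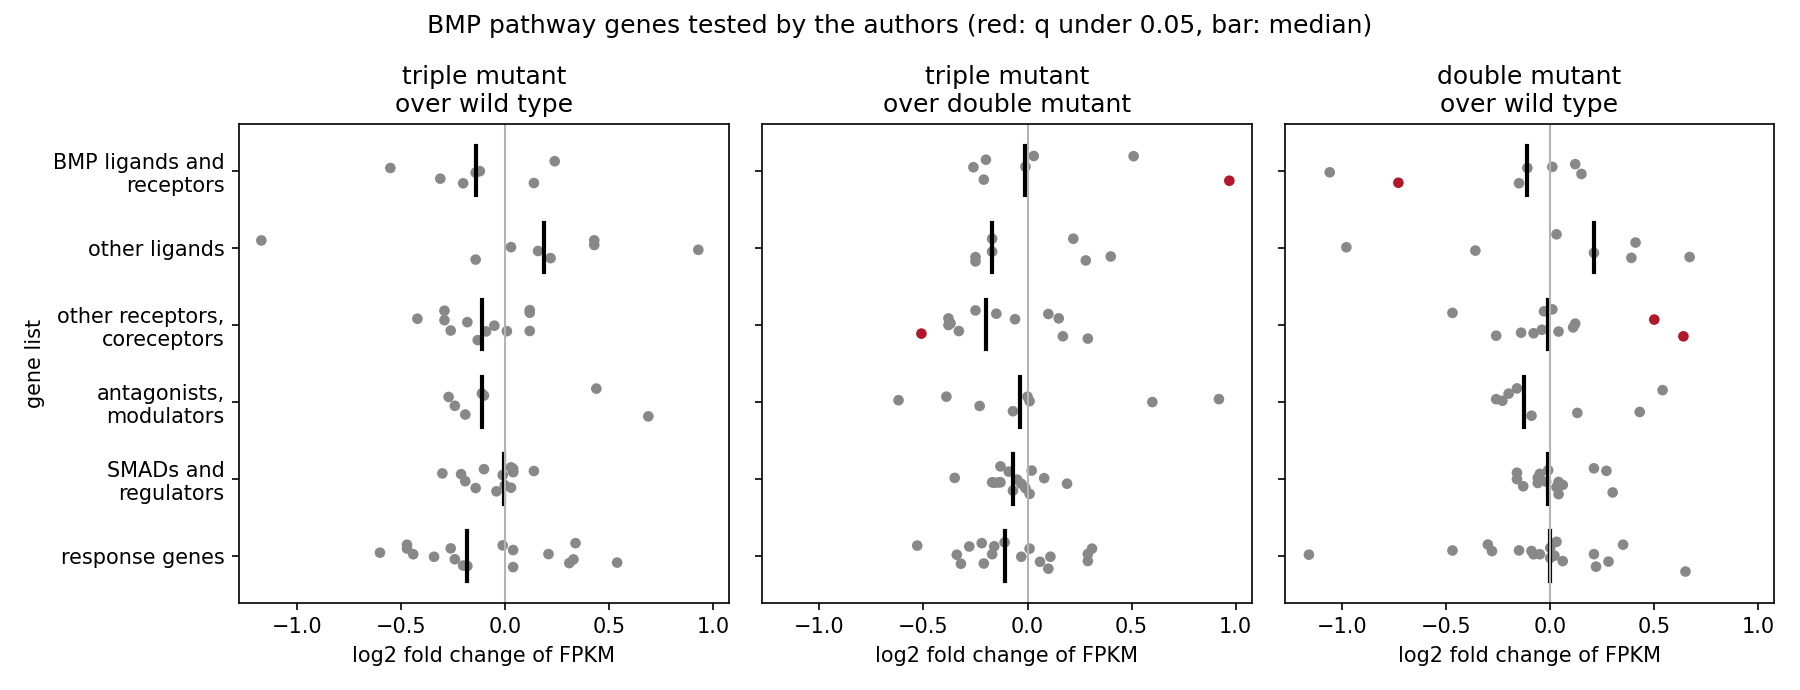
Log2 fold change of FPKM of each gene the authors tested, as points in 6 gene lists and 3 comparisons, with the list median as a bar and genes at a q value under 0.05 in red. The red points are Bmp7 among the members and Rgma and Hfe2 among the coreceptors, and the other lists hold none.

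Other genes moved between the same groups as Bmp7. Nppa, the atrial natriuretic peptide gene, which in the ventricle marks trabecular muscle, stood at 829, 505 and 919 FPKM in triple mutant, double mutant and wild type, in a shared locus, and was called in the same comparisons and directions as Bmp7 in the authors' deposited table (q = 0.0066 in each). Of the atrial list 8 genes were tested, and Nppa was the 1 called. The summed levels of 939, 629 and 1020 FPKM for the list came mostly from Nppa. The median log2 fold change of the 8 was -0.08 for triple over double mutant, with 5 negative. For double mutant over wild type it was 0.18, with 5 positive. Sln and Myl7 of this list lay under 0.2 FPKM in each group, while 8 of its 10 genes reached 1 FPKM in at least 1 group. The trabecular and conduction list, with 7 genes tested, summed to 1330, 974 and 1370 FPKM, with Nppa again the largest part. Its median log2 fold change was 0.06 for triple over double mutant and -0.02 for double mutant over wild type. Irx3 was called besides Nppa, higher in both mutant groups than in wild type (75.4, 72.4 and 48.0 FPKM, shared locus, q = 0.0066 in the authors' deposited table for each). Of all tested genes, 0.704% were called higher for triple over double mutant. For double mutant over wild type 1.89% were called higher and 0.767% lower, and for triple mutant over wild type 1.16% higher. Counts this small cannot be set against these shares. The part of Nppa and Irx3 in the difference of Bmp7 was not tested.

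Markers of other cell types gave the following values. None of the 12 endocardial and endothelial genes was called, with sums of 523, 595 and 601 FPKM in triple mutant, double mutant and wild type, and none of the 8 measured fibroblast genes, with sums of 559, 688 and 601 FPKM. The 8 fibroblast genes had a median log2 fold change of -0.29 for triple against double mutant. Of them 5 had an unadjusted p under 0.05, beside 1081 of all 12786 tested genes. The most abundant gene of each list was Cdh5, of endothelial junctions, at 188, 218 and 204 FPKM, and Col1a1, a collagen gene in a shared locus, at 163, 218 and 183 FPKM in the authors' deposited table. Of the 7 epicardial genes tested, Aldh1a2 was higher in the double mutant than in wild type, at 19.8 against 12.6 FPKM (q = 0.0066 in the authors' deposited table), and the list summed to 237, 282 and 227 FPKM. Its most abundant gene, Sparcl1, in a shared locus, stood at 187, 230 and 182 FPKM in that table and was not called. Of the 7 smooth muscle and pericyte genes tested, Acta2 was higher and Kcnj8 lower in the triple than in the double mutant, at 254 and 15.4 against 169 and 23.1 FPKM (q = 0.0066 and 0.0114 in the authors' deposited table), with list sums of 587, 581 and 556 FPKM. Rgs5, a pericyte gene and the highest in the double mutant and wild type, stood at 213, 272 and 233 FPKM in the authors' deposited table and was not called. Of the 7 immune genes tested, 4 were called higher in the triple mutant than in wild type, 1 in the triple than in the double mutant and 2 in the double mutant than in wild type, with sums of 49.0, 36.4 and 21.4 FPKM. The shares of all tested genes called higher in these comparisons were 1.16%, 0.704% and 1.89%. For triple against double mutant 0.547% were called lower. The single calls in the epicardial list and in each direction in the smooth muscle and pericyte list are too few to set against these shares. The neutrophil gene S100a9 stood at 16.7, 8.57 and 4.93 FPKM in triple mutant, double mutant and wild type in the authors' deposited table and was called in the triple mutant against each other group. The mast cell genes Cpa3 and Cma1, at 5.80 and 8.39 FPKM in the triple mutant, 4.70 and 8.55 in the double mutant and 1.25 and 3.18 in wild type in that table, were called in both mutant groups against wild type. Mcpt4, also of mast cells, stood at 3.90, 3.15 and 0.945 FPKM in that table and was called for triple mutant against wild type. The part of these markers in the calls of Bmp7, Rgma and Hfe2 was not tested.

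Genes that mark the sex of a pup differed between the groups. The X inactivation RNA Xist, in a shared locus, was listed at 88.2 FPKM in the triple mutant and 1.21 in the double mutant in the authors' deposited table, with a failed estimate in wild type. The Y-linked genes Uty and Eif2s3y stood at 10.5 and 31.1 FPKM in the triple mutant, 15.2 and 41.1 in the double mutant and 5.61 and 10.2 in wild type in that table. Uty was called for double mutant against wild type, and Ddx3y, also Y-linked, was called higher in both mutant groups than in wild type, with log2 fold changes of 1.06 for the triple and 1.54 for the double mutant (q = 0.0066 in the authors' deposited table for each). The sex of the pups is not labelled, so for Bmp7, Rgma and Hfe2 differences of sex and of genotype cannot be told apart.

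Bmp7 lies on mm9 chromosome 2 from 172693513 to 172765822, in a locus listed for no other gene. Of the 22 further genes listed within 500 kb of it, 7 were tested with a finite fold change for triple mutant against wild type and 6 in the other comparisons, with 0 called by Cuffdiff. The finite log2 fold changes of these tested neighbours lay between -0.45 and 0.44 for triple against double mutant, below the 0.97 of Bmp7, and between -0.65 and 0.44 for double mutant against wild type. The neighbour Gm14303 stood at 7.44, 0 and 5.11 FPKM in triple mutant, double mutant and wild type. Its fold for triple against double mutant is not finite and was not called (q = 0.425 in the authors' deposited table). The low 1700029J11Rik, at 0.62, 0.277 and 0.84 FPKM, had log2 fold changes of 1.16 and -1.6 in these comparisons and was not tested. Among 12316 genes tested throughout and at 1 FPKM or more in every group, the 3 closest to Bmp7 in their pair of log2 fold changes over wild type, by Euclidean distance, were Gm10012, BC048355 and Gm13786 (distances of 0.0382, 0.0432 and 0.0582). Each lies in a shared locus and none was called in any comparison (lowest q = 0.873 in the authors' deposited table), so the likeness, over 3 group values, rests on uncertain estimates.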

How the data were processed

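Total RNA of mouse ventricles was made into stranded libraries, per the labels' protocols. The tools named are Cuffdiff 2.2.1, Cufflinks 2.2.1, STAR 2.5.2 and CASAVA 1.8, with mm9 as the build, per the submitters' processing notes. The sources used here do not give the annotation, the counting strand or the normalization. The table deposited by the authors has a single FPKM for each gene in each group. Beside it stand, for each comparison, the authors' log2 fold change, p-value, q-value and Cuffdiff statistic, which is a score. Recomputing Benjamini-Hochberg over the tested rows of all 3 comparisons gave the deposited q-values to within 5.26e-07.

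Groups were taken from the labels. No values per sample were in the table used, so no new test was run, and p-values measure the spread between the libraries the authors entered, which the labels do not describe further. Rows with too many fragments (709 genes) have no call, and their genes were left out of the list sums and of the search for genes like Bmp7. Their listed values, 0 where the estimate failed, were not removed before the percentiles or the scalings by FPKM sum and upper quartile. Genes that the authors did not test have no call. Fold changes use no pseudocount. The normal value of the deposited p exceeds the deposited statistic by a median factor of 1.76 (5th to 95th percentile 1.67 to 2.26 over 35006 rows), so standard errors from the statistic are the wider reading. Start coordinates are the file's plus 1. A locus is named shared where the file repeats its coordinates on the row of a further gene.

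The members and the gene lists were chosen with earlier results of these data known. Named genes were the members, list genes with a q-value under 0.05, the 2 most abundant of each pathway list, the most abundant of each marker list and the 3 genes most like Bmp7; Tbx3, Id1, Rgmb, Smad1, Smad4, Smad5, Smad6, Smad7, Smad9, Chrd, Nog, Sln and Myl7 were added after their values were seen. The printing of the Bmpr1a and Bmpr2 windows was also chosen then, since the rule asked for promoters of called members. One symbol, Runx2, is listed for 2 genes, and the first was used. Python 3.11.15, pandas 2.3.3 and scipy 1.17.1 were used, and the adjustment was tested on simulated data.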

Additional observations from a re-analysis of the deposited data

How the results depend on the processing

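Counts of called members were the same, at 0 for triple mutant against wild type and 1 each for triple against double mutant and for double mutant against wild type, with q-values recomputed within each comparison, at the authors' own mark of significance (q under 0.1) and with an FPKM minimum of 1 or 5. These settings could have added members but could hardly have lost Bmp7. Its Cuffdiff p of 5e-05 is the lowest in the file, its level passes both minimums, and the authors' mark is the looser one. With p-values taken from the test statistic read as a normal value, an alternative chosen after seeing the data, the count was 0 for triple against double mutant and 0 for double mutant against wild type, and no gene of the 5 pathway lists was called. The log2 fold change of Bmp7 ranged over the pseudocounts and scalings from 0.87 to 1.02 for triple against double mutant, from -0.74 to -0.65 for double mutant against wild type and from 0.22 to 0.33 for triple mutant against wild type. Of 105 recomputed fold changes of the 7 tested members, 0 moved by more than the standard error read from the statistic. A scaling shifts all genes of a comparison alike, by at most 0.085, and the smallest of these errors was 0.232. The scalings could therefore not have moved a value that far. The untested Bmp2, Bmp10 and Bmpr1b have no standard error, and 12 of their 45 recomputed values moved by more than a set limit of 0.1 on the log2 scale, each under a pseudocount. The sign changed in 2, both of Bmpr1a for triple against double mutant, whose value is -0.01. No paired analysis was possible because the table holds no values per sample. For the same reason leaving out a replicate was not run, and how far a single pup sets the level of Bmp7 is not known.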
